A study of Homo sapiens with 9 samples.

Results

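The BCL2 family regulators of apoptosis described here are 10 genes picked by name from the 37351 genes of the count table: BCL2, BCL2L1, MCL1, BCL2L11, BMF, BBC3, PMAIP1, BIK, BAX and BAK1. Each symbol matched 1 gene, and all 10 passed the filter on low counts that left 19250 genes for testing. LNCaP, an established human prostate cancer line grown from a lymph node metastasis, was starved in medium without serum or calcium for 6 to 12 h and then given 15 ng/mL recombinant NRG1, a ligand of the receptor HER3. RNA was sequenced at 0, 12 and 24 h in 3 libraries per time, all 9 of which the labels call NRG1-treated. No library of cells kept without NRG1 for 12 or 24 h was analysed here, so the effect of NRG1 and that of the added hours in culture cannot be told apart. Cells had been plated in triplicate wells of a single line, so p-values measure the spread between these libraries.

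The BCL2 family decides whether the outer membrane of the mitochondrion stays intact when a cell is stressed. Pro-survival members hold the effectors BAX and BAK1 in check, BH3-only members bind and block the pro-survival members or engage the effectors directly, and active effectors open pores that release cytochrome c and start the caspase cascade. Growth factor receptors are known to act on this balance: ERK and AKT signaling restrain BH3-only proteins such as BIM, partly through FOXO transcription factors, and MCL1 is a protein of fast turnover. The data here are mRNA levels only.

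Of the 10 members, 7 passed the test at 12 h against 0 h and 8 passed at 24 h against 0 h, by edgeR's quasi-likelihood test with a Benjamini-Hochberg adjusted p of at most 0.05 over all tested genes. At 12 h, 4 rose (BCL2, MCL1, BIK and BAK1) and 3 fell (BCL2L1, BCL2L11 and BMF), where 18.7% of all tested genes passed in either direction, 10.6% higher and 8.16% lower. At 24 h, PMAIP1 joined those that rose, which gave 5 higher and 3 lower, with 21.1% of all tested genes passing, 11.6% higher and 9.48% lower. Members are well-expressed genes, and among the 10037 tested genes at or above the average level of the least abundant member the shares were 29.6% at 12 h and 32.2% at 24 h. The changes were small: a 1.5-fold difference as well was reached at 12 h by BCL2 (2.37% of all tested genes) and at 24 h by BCL2 and BMF (3.31%). Without 0 h replicate 1 or 2, BIK passed both thresholds at 12 h too, for a count of 2. The direction did not follow the role of the genes, since both pro-survival and BH3-only members were found among those that rose and those that fell. The median log2 fold change of the 10 members was 0.051 at 12 h and 0.097 at 24 h, beside -0.008 and -0.007 over all tested genes. Both comparisons use the same 0 h libraries and are therefore not independent.

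The libraries held 47016302 to 60985825 counts, and the members were covered by 307 counts (BIK, lowest library) to 27094 counts (MCL1, highest library). The response genes EGR1 and DUSP6 rose by 5.02 and 4.25 on the log2 scale at 12 h. All 9 luminal prostate cancer markers passed the filter, with a summed level of 4380 to 4820 CPM (CPM, read counts scaled to a common library total with TMM factors). Summed immune markers reached at most 0.435 CPM and summed basal markers at most 0.325 CPM. The fibroblast sum of 22.8 to 27.6 CPM came almost entirely from COL1A1. The endothelial sum, nearly all VWF, went from 12.7 to 13.7 CPM at 0 h down to 6.9 to 7.95 CPM at 24 h, and its part in the results was not tested. In bulk RNA, fewer cells that express a gene and less RNA per cell cannot be told apart.

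Promoter sequences are shown for 4 members, a pair that fell together among the BH3-only genes and the 2 pro-survival members that moved in opposite directions and have an entry. They are taken from RefSeq (GRCh38.p14) and run from 250 bases before to 50 bases after an annotated transcription start, 5′ to 3′ on the strand of the gene. Entries were found for 8 of the 10 members, and MCL1 and BIK had none. BCL2L1 and BMF each had 2 entries, of which the one farther upstream is printed. Capitals mark matches to 1 of 4 letter strings searched on both strands: TGTTTAC for FOXO, CCGGAAG for ETS, TGANTCA for AP-1 and TTCCCGCC for E2F. None of the 4 strings contains another.
BCL2L11, chr2:111120664-111120963, plus strand: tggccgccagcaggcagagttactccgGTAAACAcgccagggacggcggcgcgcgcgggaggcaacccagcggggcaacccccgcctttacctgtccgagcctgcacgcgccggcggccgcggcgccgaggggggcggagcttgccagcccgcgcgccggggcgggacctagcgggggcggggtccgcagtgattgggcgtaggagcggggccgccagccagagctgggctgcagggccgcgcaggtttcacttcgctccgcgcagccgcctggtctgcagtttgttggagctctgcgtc
BMF, chr15:40108830-40109129, minus strand: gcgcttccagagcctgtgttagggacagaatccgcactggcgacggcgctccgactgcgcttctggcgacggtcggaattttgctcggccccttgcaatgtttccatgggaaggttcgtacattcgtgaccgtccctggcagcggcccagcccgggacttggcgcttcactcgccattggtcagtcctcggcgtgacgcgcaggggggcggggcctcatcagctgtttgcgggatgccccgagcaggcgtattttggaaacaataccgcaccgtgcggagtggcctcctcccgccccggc
BCL2, chr18:63319720-63320019, minus strand: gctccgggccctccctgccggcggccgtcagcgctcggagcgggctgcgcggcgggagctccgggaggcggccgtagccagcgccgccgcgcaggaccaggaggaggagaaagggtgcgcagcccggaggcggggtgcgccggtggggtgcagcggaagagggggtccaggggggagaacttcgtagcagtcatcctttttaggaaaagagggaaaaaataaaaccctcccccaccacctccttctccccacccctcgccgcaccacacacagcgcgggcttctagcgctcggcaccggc
BCL2L1, chr20:31723914-31724213, minus strand: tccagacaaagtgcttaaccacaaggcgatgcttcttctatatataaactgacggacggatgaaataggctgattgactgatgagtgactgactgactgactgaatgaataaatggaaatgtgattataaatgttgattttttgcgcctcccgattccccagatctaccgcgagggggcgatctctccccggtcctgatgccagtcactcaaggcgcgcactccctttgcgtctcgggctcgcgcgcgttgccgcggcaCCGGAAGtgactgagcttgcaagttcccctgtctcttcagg
The BCL2L11 promoter held the FOXO string, read on the opposite strand, at position -223 from the start site, and 3.42% of the 35116 promoters in the table held it. The printed BCL2L1 entry held the ETS string at position 9 after the start (10.3% of promoters) and its other entry, chr20:31722819-31723118, did not, while the BBC3 promoter, not printed, held the AP-1 string at position -113 (7.71%). The E2F string (3.16%) was in none of the members' entries. These are matches of letters and say nothing of binding. GC content was 74.7% for BCL2L11 and 70.7% for BCL2, beside a median of 58.7% over all promoters. It was 65.0% in the printed and 50.3% in the other entry of BMF, and 52.0% in the printed and 61.3% in the other entry of BCL2L1.

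Levels between genes were compared per kilobase of the MANE Select transcript, the reference transcript of each gene in GENCODE 44. At 0 h, MCL1 stood highest at 98.7 ± 2.64 CPM per kb (SD, n = 3), followed by BAX at 64.6 ± 3.12 and BCL2L1 at 26.6 ± 1.05. PMAIP1 followed at 13.7 ± 0.213, then BBC3 at 12.1 ± 0.273 and BAK1 at 11.8 ± 0.966, whose libraries overlapped. BCL2L11 at 6.96 ± 0.178 and BIK at 6.85 ± 1.14 overlapped too, and BMF at 4.58 ± 0.221 and BCL2 at 1.07 ± 0.04 CPM per kb stood last. BCL2, the founding gene of the family, was thus the scarcest of the 3 pro-survival transcripts by length, also at 24 h, when MCL1 was at 126 ± 0.438, BCL2L1 at 21.1 ± 0.721 and BCL2 at 1.73 ± 0.0809 CPM per kb. The length used matters for BAX, whose MANE transcript has 795 bases and whose merged exons have 2587. With merged exons, an alternative added after the data were seen, BAX stood at 19.9 CPM per kb beside 16.3 for BCL2L1, both neighbouring pairs with overlapping libraries changed places, and the other 6 ranks stayed.

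**Figure D1:**
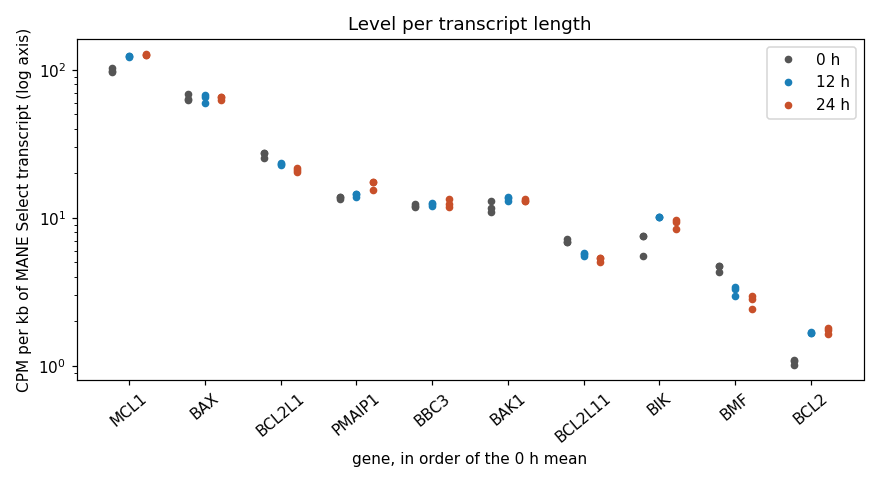
Level of each member in CPM per kilobase of its MANE Select transcript (log axis), 1 point per library, coloured by time, with genes in order of the 0 h mean. MCL1 stands highest at 98.7 and BCL2 lowest at 1.07 CPM per kb at 0 h.

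Among the pro-survival genes, BCL2 and MCL1 rose and BCL2L1 fell. BCL2 (ENSG00000171791.14, chr18:63123346-63320128, minus strand) encodes the protein after which the family is named. It was at 7.58, 7.04 and 7.40 CPM at 0 h, 11.4, 11.4 and 11.6 CPM at 12 h, and 11.3, 12.4 and 12.0 CPM at 24 h. Every library at 12 and 24 h was above every 0 h library, and the later times overlapped each other. The fold change was 1.56 at 12 h (log2 0.64, SE 0.077, adjusted p = 6.07e-08) and 1.62 at 24 h (log2 0.69, SE 0.077, adjusted p = 7.15e-09). Between 12 and 24 h the log2 difference was 0.052 (95% interval -0.09 to 0.20, adjusted p = 0.789).

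MCL1 (ENSG00000143384.14, chr1:150560895-150579738, minus strand) encodes a short-lived guardian that binds BIM, NOXA and BAK1. Its levels were 402, 383 and 385 CPM at 0 h, 487, 483 and 487 CPM at 12 h, and 501, 498 and 498 CPM at 24 h. The 3 times did not overlap, and the libraries within a time lay close together. The rise was 1.24-fold at 12 h (log2 0.32, SE 0.03, adjusted p = 4.94e-10) and 1.28-fold at 24 h (log2 0.36, SE 0.03, adjusted p = 1.66e-11). The step from 12 to 24 h, log2 0.04, had an adjusted p of 0.527. MCL1 thus had the smallest p of all members with a fold well under 1.5.

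BCL2L1 (ENSG00000171552.14, chr20:31664452-31723989, minus strand) encodes BCL-XL, and from an alternative splice site the shorter pro-death form BCL-XS. Gene counts do not separate these forms. It was at 65.4, 70.1 and 70.1 CPM at 0 h, 60.8, 59.7 and 58.2 CPM at 12 h, and 54.4, 56.0 and 52.3 CPM at 24 h. The 3 times did not overlap, with 0 h highest and 24 h lowest. It fell by 13% at 12 h (log2 -0.20, SE 0.04, adjusted p = 0.000277) and by 20.9% at 24 h (log2 -0.34, SE 0.04, adjusted p = 4.03e-08). The further fall from 12 to 24 h was log2 -0.14 (SE 0.041, adjusted p = 0.0386). That last call was lost without library scaling (adjusted p = 0.0523) and in 5 fits that left out a library, which were 12 h replicate 1 (0.164), 2 (0.122) and 3 (0.0538), and 24 h replicate 1 (0.0866) and 3 (0.201).

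**Figure D2:**
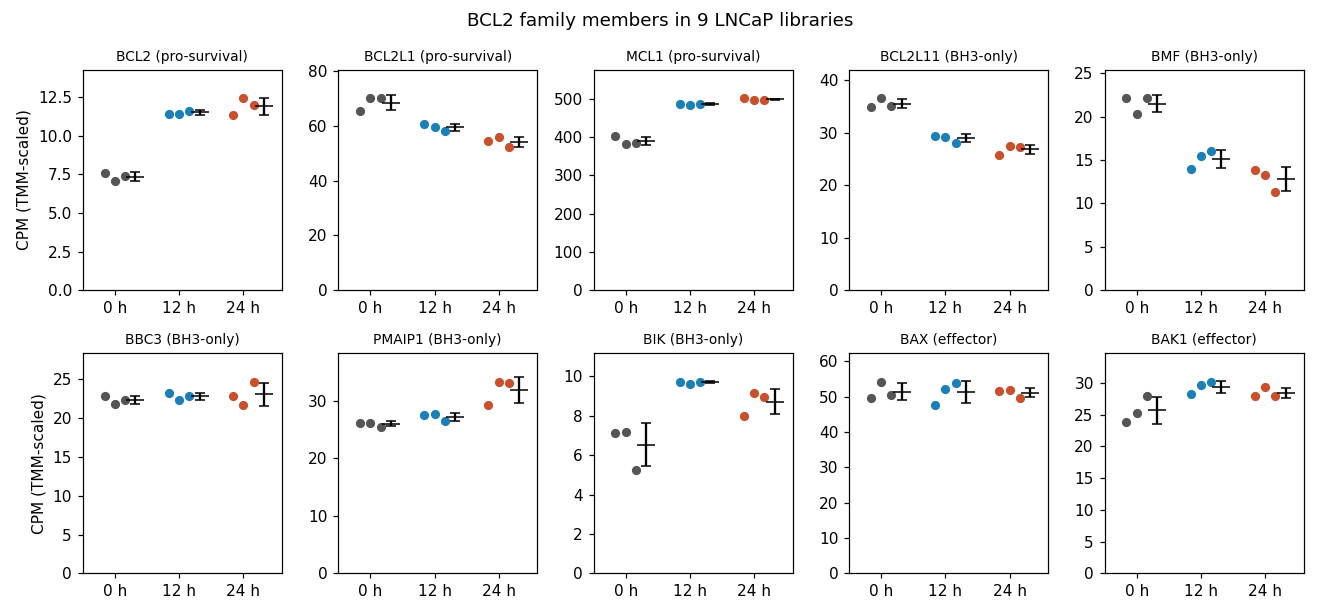
TMM-scaled CPM of the 10 members at 0, 12 and 24 h, 1 point per library with the mean and SD of 3 libraries beside them, each panel with its own axis from 0. BCL2, MCL1 and BIK are higher and BCL2L1, BCL2L11 and BMF lower at 12 and 24 h than at 0 h, with no overlap, while the BBC3 and BAX libraries overlap at all times.

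Among the 5 BH3-only genes, BCL2L11 and BMF fell, BIK rose, PMAIP1 rose at 24 h, and BBC3 did not pass the test. BCL2L11 (ENSG00000153094.24, chr2:111119378-111168445, plus strand) encodes BIM, which can bind every pro-survival protein and whose promoter with the FOXO string is printed above. It was at 34.8, 36.5 and 35.1 CPM at 0 h, 29.4, 29.2 and 28.0 CPM at 12 h, and 25.7, 27.4 and 27.2 CPM at 24 h. No library of 1 time overlapped those of another. It fell by 18.6% at 12 h (log2 -0.30, SE 0.047, adjusted p = 1.27e-05) and fell by 24.5% at 24 h (log2 -0.41, SE 0.048, adjusted p = 3.03e-08). From 12 to 24 h the log2 difference was -0.11 (adjusted p = 0.208). BCL2L11 overlaps ACOXL on the same strand, a gene with 16.4% as many counts. ACOXL did not pass the test at 12 h (log2 -0.087) or 24 h (log2 -0.18). BCL2L11 also shares 729 identical bases with MIR4435-2HG on the other strand (2.49% as many counts), and whether the counting used strand was not stated.

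BMF (ENSG00000104081.14, chr15:40087890-40108892, minus strand) encodes a BH3-only protein that is held at the cytoskeleton in healthy, attached cells. Its levels were 22.1, 20.3 and 22.1 CPM at 0 h, 14.0, 15.5 and 16 CPM at 12 h, and 13.9, 13.3 and 11.3 CPM at 24 h. Every later library was below every 0 h library, and the 12 and 24 h libraries were separated only by the gap from 14.0 to 13.9 CPM. BMF showed the largest fall of the members: it fell by 29.7% at 12 h (log2 -0.51, SE 0.069, adjusted p = 6.89e-07) and fell by 40.5% at 24 h (log2 -0.75, SE 0.07, adjusted p = 1.76e-10). The difference between 12 and 24 h, log2 -0.24 (SE 0.073, adjusted p = 0.0408), was lost with DESeq2 (adjusted p = 0.055) and without 12 h replicate 2 (0.16) or 3 (0.184) or 24 h replicate 2 (0.0553) or 3 (0.304).

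BIK (ENSG00000100290.3, chr22:43110750-43129712, plus strand) encodes a BH3-only protein found mainly at the endoplasmic reticulum, and it moved opposite to BCL2L11 and BMF. It was at 7.13, 7.16 and 5.26 CPM at 0 h, 9.71, 9.63 and 9.73 CPM at 12 h, and 7.99, 9.18 and 8.97 CPM at 24 h. All later libraries were above all 0 h libraries, of which replicate 3 was low. The rise was 1.49-fold at 12 h (log2 0.57, SE 0.096, adjusted p = 2.66e-05) and 1.34-fold at 24 h (log2 0.42, SE 0.097, adjusted p = 0.0013). Without 0 h replicate 3 both calls held, at log2 0.44 and 0.29. Without 0 h replicate 1 or 2 the 12 h log2 value was 0.65 or 0.64, past 1.5-fold.

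PMAIP1 (ENSG00000141682.12, chr18:59899996-59904305, plus strand) encodes NOXA, which binds MCL1 and hastens its degradation. Levels were 26.2, 26.2 and 25.5 CPM at 0 h, 27.5, 27.7 and 26.4 CPM at 12 h, and 29.2, 33.3 and 33.0 CPM at 24 h. The times did not overlap, but the gap between 0 and 12 h was narrow. At 12 h the log2 fold change of 0.068 (95% interval -0.03 to 0.17) had an adjusted p of 0.417. At 24 h PMAIP1 was 22.7% above 0 h (log2 0.30, SE 0.052, adjusted p = 3.89e-05), and it was above 12 h by log2 0.23 (SE 0.052, adjusted p = 0.00478). The latter call was lost without 24 h replicate 2 (log2 0.19, adjusted p = 0.0507).

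BBC3 (ENSG00000105327.18, chr19:47220822-47232766, minus strand) encodes PUMA, a BH3-only protein known as a target of p53. It was at 22.8, 21.8 and 22.4 CPM at 0 h, 23.2, 22.4 and 22.9 CPM at 12 h, and 22.8, 21.7 and 24.7 CPM at 24 h. The libraries of all 3 times overlapped. The log2 fold change was 0.034 at 12 h (95% interval -0.07 to 0.14, adjusted p = 0.747) and 0.047 at 24 h (-0.06 to 0.15, adjusted p = 0.624).

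Of the effectors, BAX did not pass the test and BAK1 rose slightly. BAX (ENSG00000087088.20, chr19:48954815-48961798, plus strand), which moves from the cytosol into the mitochondrial membrane when active, was at 49.6, 54.2 and 50.3 CPM at 0 h, 47.7, 52.2 and 53.9 CPM at 12 h, and 51.7, 51.9 and 49.7 CPM at 24 h. The ranges overlapped at all times. The log2 fold change of BAX was -0.003 at 12 h (95% interval -0.09 to 0.09) and -0.0073 at 24 h (-0.10 to 0.08), with adjusted p of 0.977 and 0.938.

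BAK1 (ENSG00000030110.13, chr6:33572547-33580293, minus strand), the effector that sits in the mitochondrial membrane at rest, was at 23.9, 25.2 and 28.0 CPM at 0 h, 28.3, 29.7 and 30.2 CPM at 12 h, and 28.0, 29.3 and 28.0 CPM at 24 h. The 12 h libraries were above the 0 h libraries by a narrow margin, and the 24 h libraries overlapped them. The log2 fold change was 0.19 at 12 h (SE 0.054, adjusted p = 0.00957) and 0.15 at 24 h (SE 0.054, adjusted p = 0.0498). The 12 h call was lost without 0 h replicate 1 (log2 0.14, adjusted p = 0.0783). The 24 h call was lost in 9 of 13 alternatives, among them DESeq2 (adjusted p = 0.0755). These 9 included the fits without replicate 1 (0.253) or 2 (0.131) of 0 h. They also included those without each 24 h library, in order of replicate number with adjusted p of 0.0712, 0.179 and 0.0656. Other filters on low counts and the 6 libraries compared alone made up the rest.

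**Figure D3:**
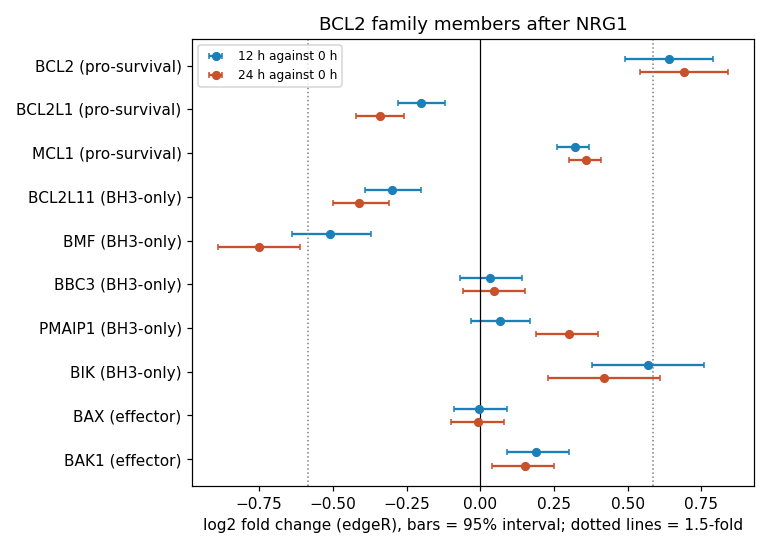
Fitted log2 fold change of each member at 12 and 24 h against 0 h, with unadjusted 95% intervals, ordered by role. BCL2 at both times and BMF at 24 h lie beyond the dotted 1.5-fold lines, and the intervals of BBC3 and BAX span 0.

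The libraries of 12 h and 0 h did not overlap for 8 members, where 32.8% of all tested genes had no overlap, and those of 24 h and 0 h for 7 members (33.5% of all tested genes). Between 24 and 12 h they did not overlap for 6 members (24.4% of all tested genes). Directly between 24 and 12 h, 3 members passed the test, PMAIP1 upward and BCL2L1 and BMF downward, where 6.08% of all tested genes passed (3.03% higher and 3.05% lower) and 10.1% of those at or above the least abundant member. The count of 3 was 1 without 12 h replicate 2 or 3, and also without 24 h replicate 2 or 3. None of the 10 passed with a 1.5-fold difference there in edgeR or DESeq2 (0.452% of all tested genes in edgeR), since the largest log2 difference was -0.24, and so 0 did at an unadjusted p under 0.05. In the F test over all times, 8 of 10 members passed, all but BBC3 (adjusted p = 0.802) and BAX (adjusted p = 0.992), as did 25.1% of all tested genes.

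Ratios between members that bind each other were formed within each library, as a description with no test, on the log2 scale of CPM. The ratio of BCL2 to BMF went from -1.54, -1.53 and -1.58 at 0 h to -0.29, -0.45 and -0.46 at 12 h and -0.30, -0.10 and 0.09 at 24 h. On average it was 2.22-fold higher at 12 h and 2.72-fold higher at 24 h, the widest shift of the 8 ratios formed. BIK, a BH3-only member that rose by log2 0.57 at 12 h and 0.42 at 24 h, was in none of these pairs. The 8 ratios therefore do not show its rise. The ratio of BCL2 to BCL2L11 went from -2.27 ± 0.091 (SD, n = 3) to -1.33 ± 0.054 and -1.17 ± 0.022, and that of MCL1 to BCL2L11 from 3.46 ± 0.07 to 4.07 ± 0.041 and 4.22 ± 0.054.

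The ratios of BCL2 to BMF, BCL2 to BCL2L11 and MCL1 to BCL2L11 set a gene that rose over one that fell, and their 0 h libraries did not overlap the later ones. Ratios with BCL2L1 on top went the other way. BCL2L1 to BBC3 went from 1.62 ± 0.087 to 1.38 ± 0.032 and 1.24 ± 0.14, and BCL2L1 to BAX from 0.42 ± 0.056 to 0.22 ± 0.12 and 0.09 ± 0.022. The ratio of MCL1 to PMAIP1 was higher at 12 h (4.16 ± 0.042) than at 0 h (3.91 ± 0.036), and at 24 h, when PMAIP1 had risen, it was 3.97 ± 0.11 and overlapped 0 h. MCL1 to BAK1 stood at 3.93 ± 0.15, 4.05 ± 0.05 and 4.13 ± 0.041. BCL2 to BAX, with a denominator that did not pass the test, went from -2.81 ± 0.12 to -2.16 ± 0.084 and -2.11 ± 0.081. The mean log2 CPM of the 3 pro-survival genes minus that of the 5 BH3-only genes was 1.57 ± 0.06 at 0 h, 1.85 ± 0.017 at 12 h and 1.89 ± 0.02 at 24 h. This average weights each transcript alike, whatever its abundance or the affinity of its protein. It covers members only and leaves out other genes of the family. One of them, the BH3-only gene HRK described below, rose by log2 0.65 at 12 h and 1.24 at 24 h. A rise of a BH3-only gene would make this difference smaller.

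**Figure D4:**
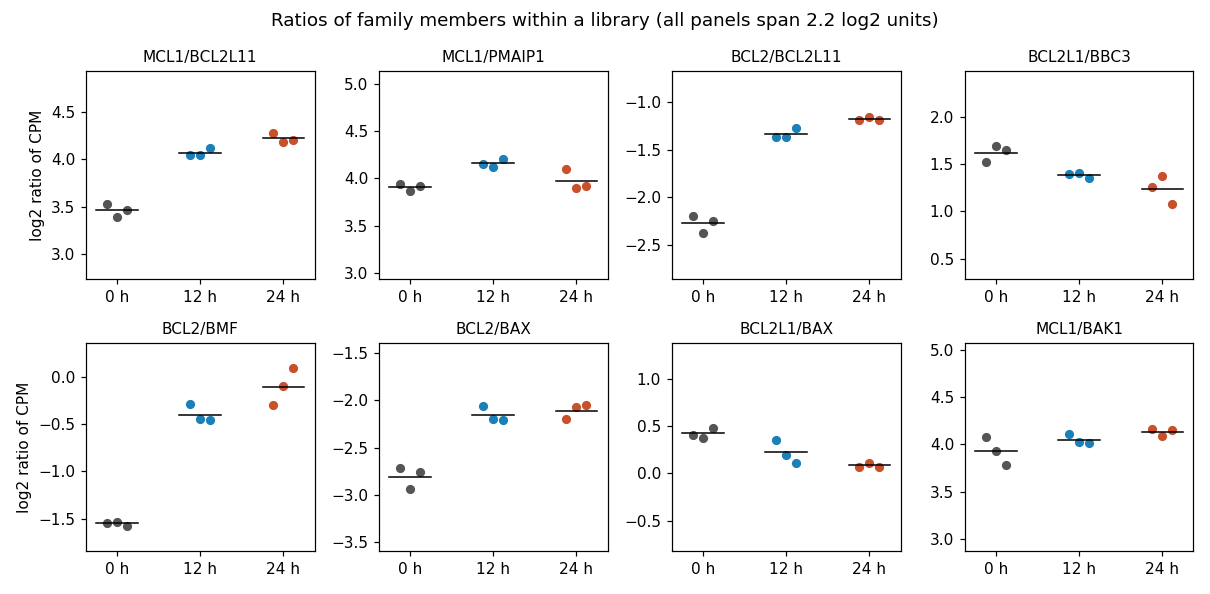
Log2 ratio of CPM of 8 pairs of members in each library at 0, 12 and 24 h, with a line at the mean of 3 libraries. Of these pairs, which leave out BIK, BCL2 to BMF shifts most, from a mean of -1.55 to -0.11, and the 2 ratios with BCL2L1 on top move downward.

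Over the 9 libraries, Pearson's r of log2 CPM was 0.99 between MCL1 and BCL2, 0.96 between BCL2L1 and BCL2L11, and -0.97 between MCL1 and BCL2L11. These values describe 9 points in 3 time groups and carry no test. BAX, which did not pass the test, had r of -0.53 to 0.16 with the other members. MCL1 had the lowest p of the members in the F test, and the genes with the most similar pattern to it among 11399 searched were FOS, LOXL1 and ATP1B1 (r = 0.995 each) and LOX and ETV4 (0.994 each), with 216 genes above 0.95. FOS, an immediate early transcription factor, went from 1.41 ± 0.244 CPM at 0 h to 28.6 ± 1.1 at 12 h and 34.8 ± 2.17 at 24 h, while ATP1B1, a sodium pump subunit, went from 327 ± 7.49 to 619 ± 4.43 and 699 ± 5.73 CPM. Likeness of pattern thus joined genes with very different sizes of change.

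Around the members, 52 other apoptosis genes in 5 lists were examined, of which 49 passed the filter. BCL2A1, BCL2L10 and BCL2L15 were too low to test. At 12 h 13 of the 49 rose and 4 fell, where 10.6% of all tested genes rose and 8.16% fell. At 24 h 12 rose and 4 fell, beside 11.6% and 9.48% of all tested genes. Among tested genes at or above the least abundant member, 29.6% passed in either direction at 12 h and 32.2% at 24 h. Some listed genes were less abundant than that member. Between 24 and 12 h, 2 rose and 4 fell, beside 3.03% and 3.05% of all tested genes. This was a total of 6 that was 3 without 12 h replicate 2 and without 24 h replicate 2, and 2 without 12 h replicate 3 and without 24 h replicate 3. Of the other BCL2 family genes, 5 of 10 tested rose at 12 h, 4 rose at 24 h, and none fell at either time in edgeR, at an unadjusted p under 0.05 (0 at 12 h and 0 at 24 h) or in DESeq2. With 8.16% and 9.48% of all tested genes lower at these times, 10 genes are too few to read the absence of falls as a pattern. HRK, the BH3-only gene Harakiri, was the one gene of the lists that passed both thresholds against 0 h. It was at 1.55, 2.16 and 1.76 CPM at 0 h, 3.15, 2.76 and 2.64 CPM at 12 h, and 4.56, 3.55 and 4.86 CPM at 24 h. The 3 times did not overlap, and 24 h was highest. The log2 fold change of HRK was 0.65 at 12 h (SE 0.16, adjusted p = 0.00275) and 1.24 at 24 h (SE 0.15, adjusted p = 7.36e-08). At 12 h it was under 1.5-fold without 0 h replicate 1 (log2 0.55) or 12 h replicate 1 (log2 0.57). BOK, a BAX-like family member, rose by log2 0.32 at 12 h (adjusted p = 3.58e-06) and 0.27 at 24 h (adjusted p = 2.76e-05). BNIP3, a mitophagy receptor, was at log2 0.12 at 12 h (adjusted p = 0.0217), a call lost with no scaling factor (0.103) and when 0 h replicate 2 (0.115) or 3 (0.108), or 12 h replicate 1 (0.0781) or 3 (0.0731), was left out.

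Of 12 genes for caspases and the apoptosome, which carry out the steps after the pores open, 3 rose at 12 h, 4 rose at 24 h and none fell in edgeR, at an unadjusted p under 0.05 (0 at 12 h and 0 at 24 h) or in DESeq2. Over all tested genes, 10.6% rose and 8.16% fell at 12 h, and 11.6% rose and 9.48% fell at 24 h. At such shares, a list of 12 genes is too short to read the absence of falls as a pattern. The shifts were small, such as log2 0.15 at 12 h for the nuclease inhibitor DFFA (adjusted p = 0.00352). The nuclease gene DFFB was at log2 0.20 at 12 h (adjusted p = 0.037) and 0.26 at 24 h (adjusted p = 0.00609). The DFFB call at 12 h was lost with no scaling factor (adjusted p = 0.0578) and without 0 h replicate 2 (0.106) or 3 (0.0989) or 12 h replicate 2 (0.102) or 3 (0.157), and at 24 h without 24 h replicate 3 (0.0687).

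Of 9 inhibitors of apoptosis and their antagonists, 1 rose and 2 fell at 12 h, and 2 rose and 2 fell at 24 h. The shares of all tested genes were 10.6% higher and 8.16% lower at 12 h, and 11.6% and 9.48% at 24 h. CFLAR, which encodes the caspase-8 inhibitor FLIP, fell by log2 0.28 at 12 h and 0.32 at 24 h (adjusted p = 6.97e-06 and 7.49e-07). BIRC2, the inhibitor cIAP1, rose by log2 0.21 and 0.27 (adjusted p = 0.000175 and 3.64e-06). Its relative BIRC3 was at log2 0.40 at 12 h (adjusted p = 0.0513) and rose by 0.47 at 24 h (adjusted p = 0.0174), a call lost without 0 h replicate 3 (adjusted p = 0.108) or 24 h replicate 2 (0.0582) or 3 (0.0756). BIRC5, survivin, which also works in cell division, fell at 24 h by log2 0.26 (adjusted p = 5.98e-06) from 60.2, 65.8 and 66.3 CPM at 0 h to 54.7, 53.9 and 51.5 CPM. XIAP was lower at 12 h by log2 -0.15 (adjusted p = 0.00166) and at log2 -0.0025 at 24 h (adjusted p = 0.974).

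**Figure D5:**
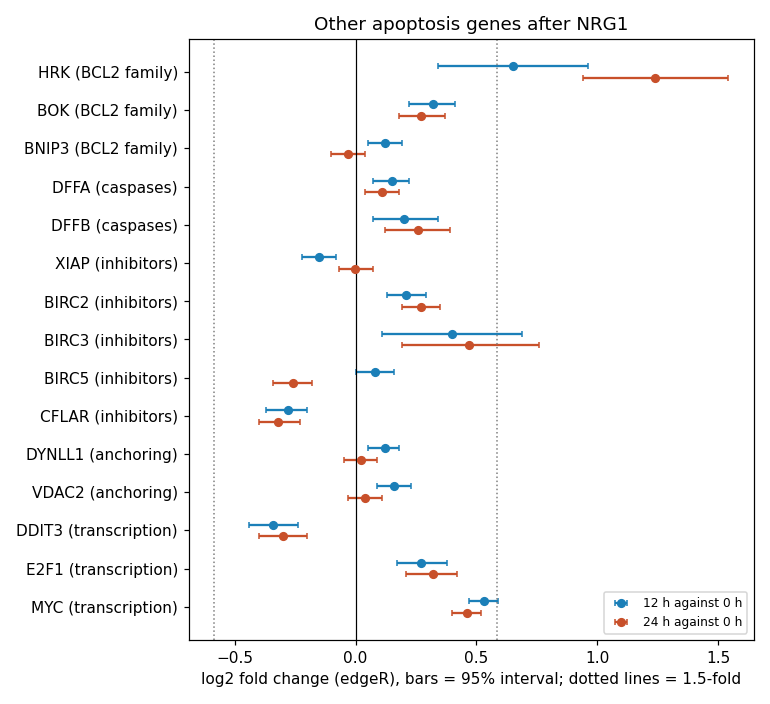
Fitted log2 fold change of other apoptosis genes of the lists at 12 and 24 h against 0 h, with unadjusted 95% intervals and the list of each gene in brackets. HRK at both times lies past the dotted 1.5-fold line, CFLAR and DDIT3 lie below 0 at both times, and BIRC5 lies below 0 at 24 h.

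Of 10 genes for turnover and anchoring of family proteins, VDAC2 (log2 0.16, adjusted p = 0.0014) and DYNLL1 (log2 0.12, adjusted p = 0.0105) rose at 12 h and none passed at 24 h in edgeR or DESeq2, with 1 lower at an unadjusted p under 0.05. VDAC2 holds BAK1 at the mitochondrion and DYNLL1 is a dynein light chain that binds BIM and BMF. The DYNLL1 call was lost without 12 h replicate 2 (adjusted p = 0.0557). Of 8 transcription factors known to act on BH3-only genes, 2 rose and 2 fell at both times. For this list and the turnover list, the shares of all tested genes were 10.6% higher and 8.16% lower at 12 h. At 24 h they were 11.6% and 9.48%. MYC rose 1.45-fold at 12 h (log2 0.53, adjusted p = 1.61e-15) and 1.38-fold at 24 h (log2 0.46, adjusted p = 4.95e-14). E2F1 rose by log2 0.27 at 12 h (adjusted p = 0.000265) and 0.32 at 24 h (adjusted p = 2.5e-05). DDIT3, the stress factor CHOP, fell by log2 0.34 at 12 h (adjusted p = 1.34e-05) and 0.30 at 24 h (adjusted p = 6.12e-05). The remaining gene of this count, FOXO3, which was chosen for mention after its values were seen, fell from 221, 214 and 204 CPM at 0 h to 177, 173 and 180 CPM at 12 h (log2 -0.27, adjusted p = 1.44e-07) and was at 181, 186 and 191 CPM at 24 h (log2 -0.20, adjusted p = 2.76e-05). FOXO1 and FOXO4 did not pass at either time.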

How the data were processed

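The labels and the study's methods give poly(A) libraries (TruSeq mRNA) sequenced as read pairs. The authors trimmed the reads with Cutadapt, used STAR to align them to GRCh38.p13 and featureCounts to assign them to genes. The strand setting and the treatment of reads with several matches were not given in the sources used here. The authors deposited raw whole-number counts, 1 column per library, without normalization or pooling, and 14 other columns were not used. The methods mention 1 LNCaP replicate at time 0 left out for quality. They do not name its treatment, but the study's captions give a lower replicate number for the ASPN libraries only, and all 3 of the NRG1 0 h libraries were used here.

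Tests used edgeR 4.0.16 (R 4.3.3) on the counts (TMM scaling, filterByExpr on the groups, robust quasi-likelihood fit of 9 libraries, no covariate), after a check on simulated data. Adjusted p is Benjamini-Hochberg over 19250 genes, with thresholds of 0.05 and 1.5-fold. SE is the absolute log2 fold change divided by the square root of the quasi-likelihood F. The 95% intervals use this SE and a normal quantile, which makes them somewhat narrower than intervals from a t distribution. CPM values use TMM-scaled totals, with SD over 3 libraries, and the precision that 47016302 to 60985825 counts per library give covers counting error only. Alternatives were DESeq2 1.42.0, other scalings and filters, the 6 libraries compared alone, a replicate block, and leaving out each library. Gene positions are those of the deposited table. Lengths came from GENCODE 44, promoters from RefSeq, and near-identical copies from BLAST 2.17.0 with at least 95% identity over 150 bases: BAK1 and BAK1P1 (31 counts), BMF and BMF-AS1, BCL2L1 and ABALON (2 counts), and BCL2L11 and MIR4435-2HG.

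The members and gene lists were chosen with earlier results of these data known. All 10 members were named, with EGR1 and DUSP6 as a response check. Of the lists, genes past both thresholds were named, and in each list and comparison the 2 with the largest change among those with adjusted p at most 0.05 and a mean log2 CPM no lower than 1. A gene that this rule also selects is not reported here. The 5 genes most like the member with the lowest F test p were named as well.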

Additional observations from a re-analysis of the deposited data

Results flagged for a closer look

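For 9 genes the change from 0 h to 24 h differed from the change from 0 h to 12 h by a direct edgeR test of 24 h against 12 h, in which the 0 h libraries cancel. Among the members, the log2 difference (24 h minus 12 h) was -0.14 for BCL2L1 (adjusted p = 0.0386), -0.24 for BMF (adjusted p = 0.0408) and 0.23 for PMAIP1 (adjusted p = 0.00478). BCL2L1 and BMF were lower at 12 h than at 0 h and lower again at 24 h, and PMAIP1 was higher at 24 h than at both earlier times. The alternatives under which these calls were lost stand with each gene above.

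Of the other apoptosis genes, the difference was 0.60 for HRK (adjusted p = 0.00971), -0.15 for BNIP3 (adjusted p = 0.0116), -0.35 for BIRC5 (adjusted p = 2.67e-07), 0.15 for XIAP (adjusted p = 0.00652) and -0.12 for VDAC2 (adjusted p = 0.0429). It was -0.15 for BAG1 (adjusted p = 0.0304), a gene outside the naming rule that was added after its values were seen. The BAG1 call was lost with no scaling factor (0.0631) and when 12 h replicate 1 (0.0747), 2 (0.126) or 3 (0.0863), or 24 h replicate 1 (0.161) or 2 (0.103), was left out. BIRC5 was at 67.5, 67.8 and 68.1 CPM at 12 h and at 54.7, 53.9 and 51.5 CPM at 24 h, and its call held in all 13 alternatives. XIAP was at 127, 128 and 138 CPM at 12 h and at 141, 145 and 150 CPM at 24 h, and its call was lost without 12 h replicate 1 (adjusted p = 0.0642) or 2 (0.0539) or 24 h replicate 3 (0.0614). The HRK call was lost without 12 h replicate 3 (0.0599) or 24 h replicate 3 (0.0873). The BNIP3 call was lost with no scaling factor (0.0774) and without 12 h replicate 1 (0.068) or 3 (0.0585) or 24 h replicate 2 (0.0603) or 3 (0.0862). The VDAC2 call was lost with DESeq2 (0.0585) and without 12 h replicate 2 (0.233) or 3 (0.179) or 24 h replicate 1 (0.0788), 2 (0.0506) or 3 (0.232).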

How the results depend on the processing

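Counts of members past the tests were within 1.5 times their values in every alternative run except when single libraries were left out. The number of members past both thresholds at 12 h then ranged from 1 to 2, with BIK added without 0 h replicate 1 or 2. The number past adjusted p between 24 and 12 h ranged from 1 to 3, and was 1 without 12 h replicate 2 or 3 or 24 h replicate 2 or 3. Over members, named genes and counts of listed genes together, 1042 values kept their direction and side of the threshold, 66 lost a call, 2 gained one (BIRC3 at 12 h) and 17 reversed, all 17 without a call, while 4 counts of listed genes between 24 and 12 h moved (2 to 7 over the alternatives, beside 6). When libraries were left out, the log2 values of the reversed comparisons ranged from -0.036 to 0.05 (BAX, 12 h), -0.028 to 0.033 (BAX, 24 h), -0.053 to 0.031 (BAX, 24 against 12 h), -0.0043 to 0.09 (BBC3, 24 h), -0.038 to 0.054 (BBC3, 24 against 12 h), -0.027 to 0.022 (XIAP, 24 h), -0.066 to 0.022 (BNIP3, 24 h), -0.00066 to 0.16 (BIRC3, 24 against 12 h) and -0.0049 to 0.10 (DFFB, 24 against 12 h). With no scaling factor BAX was at 0.0078 (24 against 12 h), and with the 6 libraries compared XIAP was at 0.0019 (24 h). The cause was not tested.

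Same-numbered libraries did not deviate together (r of -0.0367 to 0.0295), and each library's best match was its own number in 3 of 9 pairs. These values give no sign of pairing by number, but they cannot show that the samples were unpaired. With the replicate block, the members that passed numbered 7 (12 h), 8 (24 h) and 3 (24 against 12 h), as without it.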
